A study of Mus musculus with 6 samples.

Results

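The subject here is the COP9 signalosome, described through the 9 mouse genes Gps1, Cops2, Cops3, Cops4, Cops5, Cops6, Cops7a, Cops7b and Cops8. All 9 were found by symbol among the 21937 rows of the authors' deposited table. The set was chosen by the low value of Gps1 in this same comparison, and the other 8 genes were added because their products belong to the same complex. The values below are therefore a description of the complex and no test of it. The compared libraries came from cortical cells of mouse embryos that received plasmid DNA into the lateral ventricle by in utero electroporation at embryonic day 14.5, and GFP-positive live cells were sorted 4 days later, at embryonic day 18.5. In shNat14 (3 libraries) the plasmid carried an shRNA against Nat14, an acetyltransferase-family gene, and in NTC (3 libraries) it was the NTC control. Electroporation, dissociation and sorting were common to both groups. The labels give neither strain nor sex, nor whether libraries of a group came from separate litters or pooled embryos. Xist, an RNA made in female cells, had an adjusted p under 0.05 in this comparison per the authors' deposited table. Whether the groups differed in sex was not tested. The p-values rest on these 6 libraries, whose spread may be technical. As the test behind them is not given, they need not measure the spread of each gene alone.

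The COP9 signalosome is a protein complex that removes the ubiquitin-like protein NEDD8 from cullins, the scaffolds of the cullin-RING ubiquitin ligases. Cycles of NEDD8 attachment and removal let these ligases exchange the receptors that pick their substrates, and in developing neurons cullin-RING ligases act in cell cycle exit, migration and differentiation. Most signalosome subunits carry a PCI domain, which joins the subunits to each other, and the remaining pair, Cops5 and Cops6, carry an MPN domain. The same architecture recurs in the lid of the 26S proteasome and in translation initiation factor 3.

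Each row of the authors' deposited table gave a log2 fold change, a mean level in log2 CPM (read counts scaled to a common library size), a p-value and an adjusted p-value for shNat14 against NTC, with no value per library, so the depth of the libraries is unknown and no SD can be given. The direction of the fold change was read from Nat14, the targeted gene, whose approximate level was 3.99 CPM in shNat14, against 39.7 CPM in NTC (log2 fold change -3.31, adjusted p = 1.2e-08, per the authors' deposited table). An approximate standard error was obtained for each gene from its fold change and p-value, and approximate group levels were obtained by dividing the mean level between the groups in the ratio of the fold change. At adjusted p under 0.05, 34 rows were called per the authors' deposited table, which is 0.155% of all rows, and 22 of them, 0.1%, were lower in shNat14. Among the 9 subunit genes 1 was called, Gps1, and since Gps1 prompted the choice of the set, nothing is read from that count. Of the cell type markers, the cortical neuron genes Neurod6, Tubb3 and Dcx had mean log2 CPM of 11.3, 9.83 and 9.82 per the authors' deposited table. Markers of other classes were also high, with the progenitor gene Fabp7 at 11.0 and the astrocyte-list genes Slc1a3 and Apoe at 9.59 and 8.95 per the authors' deposited table, so these levels do not single out neurons. The vesicular transporter gene Slc17a7 was near the lowest level, at -1.55.

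Gps1 encodes subunit 1, a PCI-domain protein needed for assembly of the complex. Its approximate level was 102.5 CPM in shNat14, against 281 CPM in NTC. In the authors' deposited table its log2 fold change was -1.46, or 36.5% of the NTC level (p = 7.36e-08, adjusted p = 0.000143). The approximate standard error was 0.27, which puts the approximate 95% interval between -1.99 and -0.93 on the log2 scale. In order of p, Gps1 was number 11 of all rows, after Rgs1 (p = 5.23e-08) and before Adora2b (p = 7.83e-08) per the authors' deposited table. Of the 22 called falls, 0 had a higher mean level than Gps1 and 0 had a smaller fold change in size. As Gps1 was chosen by its value here, these counts describe it and test nothing. In these bulk libraries fewer cells of a type and less RNA per cell cannot be told apart.

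The promoter windows of Gps1 and of Cops2, the member that stood furthest in the opposite direction, are shown because these genes mark the ends of the range of the complex. Each window runs from 250 bases before to 50 bases after the annotated start, from RefSeq on GRCm38.p6, and is written 5′ to 3′ along the gene. Capitals mark the core CCGGAA of ETS-family binding motifs, searched on both strands. The Gps1 window lies at chr11:120784020-120784319 on the plus strand and the Cops2 window at chr2:125859033-125859332 on the minus strand.
Gps1: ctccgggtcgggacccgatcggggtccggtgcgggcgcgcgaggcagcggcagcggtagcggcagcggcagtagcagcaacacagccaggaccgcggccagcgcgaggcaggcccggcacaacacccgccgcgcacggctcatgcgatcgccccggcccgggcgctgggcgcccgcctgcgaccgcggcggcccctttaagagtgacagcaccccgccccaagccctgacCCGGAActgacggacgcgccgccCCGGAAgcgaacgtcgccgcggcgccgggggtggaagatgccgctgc
Cops2: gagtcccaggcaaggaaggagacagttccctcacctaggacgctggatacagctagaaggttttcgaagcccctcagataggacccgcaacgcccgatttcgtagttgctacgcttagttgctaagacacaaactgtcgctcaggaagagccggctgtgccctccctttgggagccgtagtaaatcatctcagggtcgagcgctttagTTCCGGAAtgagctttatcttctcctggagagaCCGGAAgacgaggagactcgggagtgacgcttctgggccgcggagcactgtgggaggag
The Gps1 window held 2 matches, both along the gene's own strand, and the Cops2 window held 3, of which 2 overlap on opposite strands. RefSeq windows were matched for 8 of the 9 members, all but Cops5, and 6 of these 8 held CCGGAA, which is present in 15.2% of all 27025 windows. The members without it were Cops6 and Cops7b. Of the other motifs searched, the GC box GGGCGG was in 5 of the 8 windows and in 35.9% of all windows, and the CCAAT box CCAAT in 1 and in 37.9%. The YY1 motif AANATGGCG was in 2 of the 8 and in 2.51% of all windows, and the E-box CACGTG in 1 and in 7.24%. Neither the NRF1 motif nor the TATA box TATAAA was in any of the 8, against 4.78% and 14.2% of all windows. The Gps1 window had a GC content of 77.0%, above the 51.0 to 70.0% of the other member windows and the median of 52.7% over all windows. Its ratio of observed to expected CG pairs was 1.08, within the 0.41 to 1.13 of the other member windows. The median over all windows was 0.389. The set of all windows was not matched to the members in GC content or CG pairs, so the shares of motifs are not compared on like sequence. A match describes letters in the window and says nothing about binding.

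The other 8 subunit genes lay between -0.53 and 0.75 on the log2 scale per the authors' deposited table, with a median of -0.07. Over all genes above the lowest level the median was 0.0033. Gps1 lay 1.39 below the median of the other 8 and 0.92 below the lowest of them, Cops7b. Of the 8, 5 lay below 0 and 3 above it, and the approximate 95% interval held 0 for 7. For 5 of them the whole interval lay above that of Gps1. Gps1 was chosen for its low value and its interval rests on the normal form, so this is no test of a difference.

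**Figure D1:**
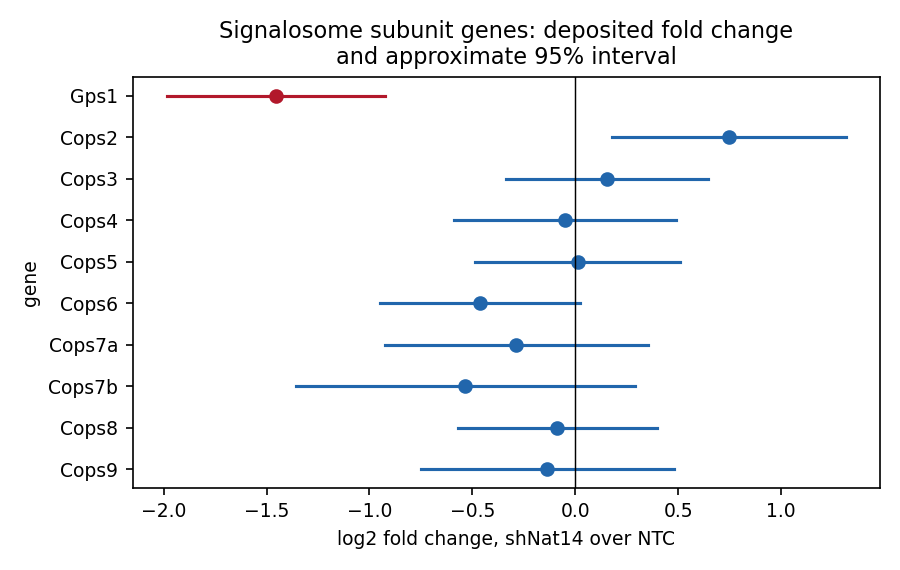
Log2 fold change of shNat14 over NTC for the 9 signalosome subunit genes and the small subunit gene Cops9, as dots, with approximate 95% intervals as lines. Gps1, in red, sits at -1.46, and the 8 other subunit genes sit between -0.53 and 0.75.

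The PCI-domain subunits other than Gps1 lay on both sides of 0. Cops2, whose product contacts the cullin, had an approximate level of 458 CPM in shNat14, against 273 CPM in NTC. Its log2 fold change was 0.75 per the authors' deposited table (p = 0.01, adjusted p = 0.661), with an approximate interval from 0.18 to 1.31. Cops2 thus did not pass the adjusted threshold, and it was the member other than Gps1 with an unadjusted p under 0.05. That mark was reached by 5.04% of all rows, 2.79% higher and 2.25% lower in shNat14. All rows include 4537 at the lowest level. The rows that reached the mark, 611 higher and 494 lower, were all among the 17400 genes above that level, as were the 9 members. Cops3, another PCI-domain subunit gene, had 295 CPM in shNat14, against 265 CPM in NTC, by the same approximation. Its log2 fold change was 0.15 per the authors' deposited table (p = 0.538). Cops4, whose product senses the NEDD8-modified cullin, had 283 CPM in shNat14, against 293 CPM in NTC (log2 fold change -0.05, p = 0.86, per the authors' deposited table). Cops8, the gene of a small PCI-domain subunit, had 149.9 CPM in shNat14, against 159 CPM in NTC (log2 fold change -0.09, p = 0.722, per the authors' deposited table). The approximate intervals of Cops3, Cops4 and Cops8 ran from -0.34 to 0.64, from -0.59 to 0.49 and from -0.57 to 0.40. None of these 3 intervals reaches the fold change of Gps1, which was chosen for its low value.

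Subunit 7 is encoded by the paralogs Cops7a and Cops7b, which occupy the same place in the complex. Cops7a had 51.7 CPM in shNat14, against 63.1 CPM in NTC, by the same approximation, and a log2 fold change of -0.29 per the authors' deposited table (p = 0.379). Cops7b had 23.8 CPM in shNat14, against 34.5 CPM in NTC, and a log2 fold change of -0.53 per the authors' deposited table (p = 0.204). The lower bound of the approximate interval of Cops7b, at -1.36, came closest to the value of Gps1, and its standard error of 0.42 was the largest of the 9. The coding sequences of the paralogs are 61.6% identical over 834 aligned positions.

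The MPN-domain subunits form the deneddylating pair. Cops5 encodes the metalloprotease that cleaves NEDD8 from the cullin, and its level was 226 CPM in shNat14, against 224 CPM in NTC, by the same approximation. Its log2 fold change was 0.01 per the authors' deposited table (p = 0.963), with an approximate interval from -0.49 to 0.51. Cops6, the catalytically inactive partner of Cops5, had 191 CPM in shNat14, against 263 CPM in NTC. Its log2 fold change was -0.46 per the authors' deposited table (p = 0.0627), and its approximate interval, from -0.95 to 0.02, overlapped that of Gps1 at its lower end. The small acidic subunit Cops9, which is not among the 9 and is listed under its older symbol Myeov2, had a log2 fold change of -0.14 per the authors' deposited table (p = 0.664). Gps2, which shares the G protein pathway suppressor name with Gps1 but belongs to another complex, stood at 0.14 per the authors' deposited table (p = 0.709).

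**Figure D2:**
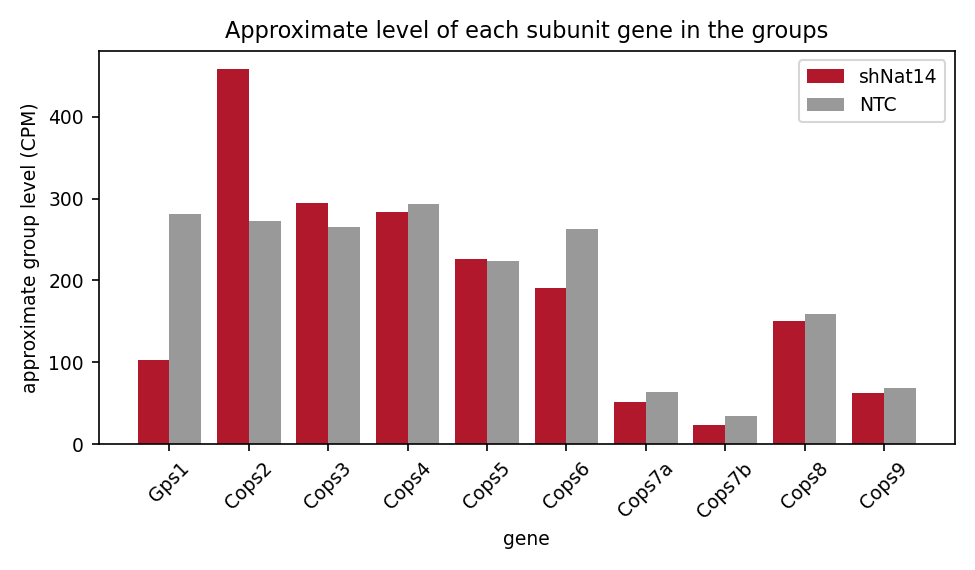
Approximate level in CPM (vertical axis from 0) of the 9 subunit genes and Cops9, with shNat14 in red at the left and NTC in grey at the right of each pair. Gps1 stands at 102.5 CPM in shNat14, against 281 CPM in NTC, and Cops2 at 458 CPM in shNat14, against 273 CPM in NTC; the bars are not per gene length and show no error because the table has no values per library.

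Per kilobase of annotated exon, the approximate level of Gps1 was 35.6 CPM in shNat14, against 97.7 CPM in NTC. On this scale it was number 6 of the 9 in shNat14, against number 2 in NTC, where Cops6 was highest at 104 CPM per kilobase. Per kilobase of the longest coding sequence, a scale chosen after the data were seen, Gps1 was number 7 of the 9 in both groups, so its place among the subunits depends on the length used. The paralogs Cops7a and Cops7b were number 8 and number 9 on both scales in both groups.

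Gps1 was also set beside genes of like level. Within 0.5 log2 CPM of its mean log2 CPM of 7.58 there were 891 other genes, with a median log2 fold change of 0.12 and 5th and 95th percentiles of -0.43 and 0.59. Of these 891, 0 had a lower fold change than Gps1, 0 were called lower and 1 was called higher per the authors' deposited table. Gps1 was chosen for its low value in this comparison, so its place among these genes is a description and no test. The nearest were the calcium sensor gene Ncs1 at -0.90 (p = 0.0582), the transcription factor gene Nfix at -0.83 (p = 0.00737), the microfibril gene Mfap2 at -0.83 (p = 0.00184) and Dcakd at -0.79 (p = 0.0108), all per the authors' deposited table. Likeness was the difference in log2 fold change from Gps1 over this single comparison, 0.56 for Ncs1 and 0.67 for Dcakd, and none of the 4 was called.

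**Figure D3:**
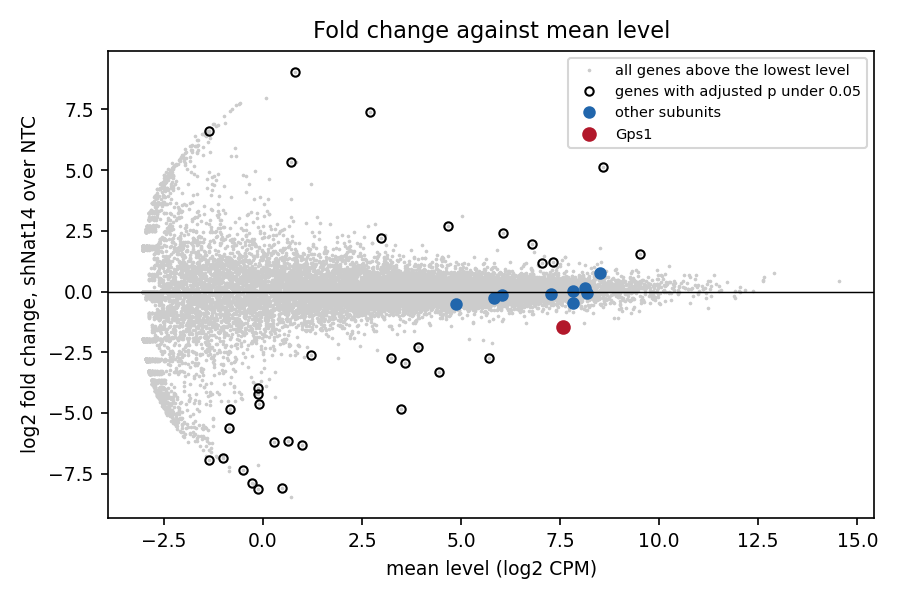
Log2 fold change of shNat14 over NTC against mean log2 CPM for the 17400 genes above the lowest level (grey), with the 34 called genes as open circles, Gps1 in red and the other subunit genes and Cops9 in blue. Gps1, at 7.58 log2 CPM, lies below the band of genes of like level, and the blue points lie in or near it.

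Gps1 has a near-identical copy in the mouse genome, which leaves its value uncertain, since reads from either gene can match both. Of all stretches of 50 bases in the longest coding transcript of Gps1 in GENCODE M21, 63.2% also occur unchanged in Gm9816, a processed pseudogene on chromosome 16 with 1 exon. The copy is 1414 bases long and aligned with 99.8% identity and 3 mismatches to positions 226 to 1639 of the 2000-base transcript, counted from 1 at its 5′ end. With stretches of 100 bases the shared part was 57.0%. No row for Gm9816 was found per the authors' deposited table, and neither the read length nor the handling of reads with several matches is given in the sources used here. How far the copy entered the value of Gps1 was not tested.

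The other subunit genes shared less with other genes. The share of 50-base stretches found in another gene was 14.1% for Cops3, mainly in the opposite-strand gene Gm16062, and 5.58% for Cops5, in the opposite-strand gene Cspp1. It was 0.863% for Cops6, 0.112% for Cops7b, and 0 for Cops2, Cops4, Cops7a and Cops8. Among the 16 called genes at or above the median mean level, Gps1 was the 1 with over 50% of its stretches in another gene. The share of all genes above that mark was not computed, nor were called genes of lower level examined. Whether Gps1 is unusual in this was therefore not tested.

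**Figure D4:**
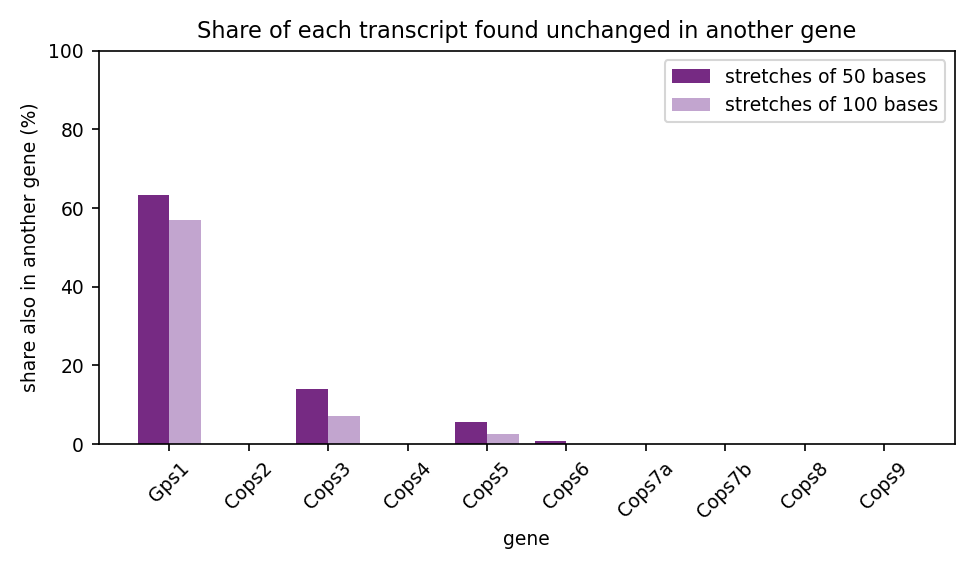
Share in percent of 50-base (dark) and 100-base (light) stretches of the longest coding transcript that occur unchanged, on either strand, in a transcript of another gene, for the 9 subunit genes and Cops9. Gps1 stands at 63.2% and 57.0%, Cops3 at 14.1% and 7.18%, and Cops5 at 5.58% and 2.63%.

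The measured genes beside Gps1 had values nearer to 0. Rfng, a glycosyltransferase gene of the Fringe family that modifies Notch receptors, is transcribed away from Gps1, and 8 bases separate the outer edges of the RefSeq gene models, which span all transcripts of each gene. Their promoter windows, each set on 1 listed start that lies inside its gene model, share 165 bases. Rfng had 48.3 CPM in shNat14, against 49.3 CPM in NTC, by the approximation above, with a log2 fold change of -0.03 per the authors' deposited table (p = 0.954) and an approximate interval from -1.05 to 0.99. Dus1l, a tRNA dihydrouridine synthase gene on the other side, runs towards Gps1, and its RefSeq model overlaps that of Gps1 by 1544 bases, while no exonic overlap was found in GENCODE M21. Dus1l stood at -0.33 per the authors' deposited table (p = 0.305), and beyond it Fasn, the fatty acid synthase gene, at -0.29 (p = 0.453) and Ccdc57 at 0.55 (p = 0.29). Further on the side of Rfng, Gm11771 is not analysed here and Hmga1b, listed under an older symbol, was at the lowest level. The libraries were made with a Nextera kit, per the labels, which does not mark the strand, so reads from overlapping opposite-strand genes, Gm16062 and Cspp1 included, cannot be told apart.

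The genes on which the signalosome acts were examined as lists. None of the 8 cullin genes had an unadjusted p under 0.05 per the authors' deposited table, and their fold changes ran from -0.17 to 0.34 with a median of 0.10. The smallest p among the cullins was that of Cul1, scaffold of the SCF ligases, at 0.34 (p = 0.214), then Cul2 at 0.16 (p = 0.525) and Cul4b at -0.17 (p = 0.534), per the authors' deposited table. Rbx1 and Rnf7, the RING subunits that recruit the E2 enzyme, stood at -0.09 (p = 0.742) and -0.0022 (p = 0.994) per the authors' deposited table. The adaptor genes Skp1a, Ddb1, Elob and Eloc, which link cullins to substrate receptors, stood at 0.10, -0.15, 0.01 and 0.33 per the authors' deposited table, with p from 0.212 to 0.976. Elob and Eloc are listed there under older symbols.

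In the NEDD8 pathway 12 of 14 genes had a positive fold change, with a median of 0.18, and 0 had an unadjusted p under 0.05 per the authors' deposited table. Among all 17400 genes above the lowest level 9118 were positive and the median was 0.0033. That background was not matched to the pathway genes in level. The 891 genes within 0.5 log2 CPM of Gps1 had a higher median, 0.12. Whether the pathway genes differed from other genes of their own levels was not tested. Cand1, the factor that exchanges substrate receptors on cullins free of NEDD8, had the smallest p (log2 fold change 0.52, p = 0.0648), followed by the co-E3 genes Dcun1d4 at 0.43 (p = 0.141) and Dcun1d1 at 0.24 (p = 0.331), per the authors' deposited table. Of 30 substrate receptor genes, 15 were positive and 15 negative, and 1 had an unadjusted p under 0.05, against 5.04% of all rows. That gene was Klhl9, a CUL3 receptor of mitosis, at 0.73 (p = 0.0365, adjusted p = 0.951) per the authors' deposited table. Dcaf1, a CUL4 receptor listed under an older symbol, stood at 0.55 (p = 0.117) and Fbxw8, a CUL7 receptor, at -0.62 (p = 0.128) per the authors' deposited table.

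Of 17 genes whose proteins are ligase substrates or are known to be acted on by the signalosome, 2 had an unadjusted p under 0.05 per the authors' deposited table and 0 were called. These were Trp53, the gene of the tumour suppressor p53, at -0.63 (p = 0.0383) and Dab1, the reelin pathway adaptor of migrating neurons that CUL5 ligases degrade, at 0.55 (p = 0.04), per the authors' deposited table. Cdt1, a replication licensing factor, followed at -0.60 (p = 0.152) per the authors' deposited table. The median of this list was -0.02. Of 6 partner genes, Csnk2a1, the catalytic subunit gene of casein kinase 2, had the largest difference at -1.11 (p = 0.0155, adjusted p = 0.744) per the authors' deposited table. Its value is uncertain in the manner of Gps1, because 55.6% of the 50-base stretches of its longest transcript recur in Gm10031. Its regulatory partner Csnk2b stood at -0.33 (p = 0.254) and the kinase gene Prkd1 at -0.70 (p = 0.13) per the authors' deposited table. Over the 7 lists of ligase, NEDD8, substrate and partner genes, 0 of 81 genes were called, 2 had an unadjusted p under 0.05 with a lower and 2 with a higher value in shNat14, and the median was 0.03. Of all rows 0.155% were called, and 2.25% had an unadjusted p under 0.05 with a lower and 2.79% with a higher value. Nothing is read from the counts of these lists.

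**Figure D5:**
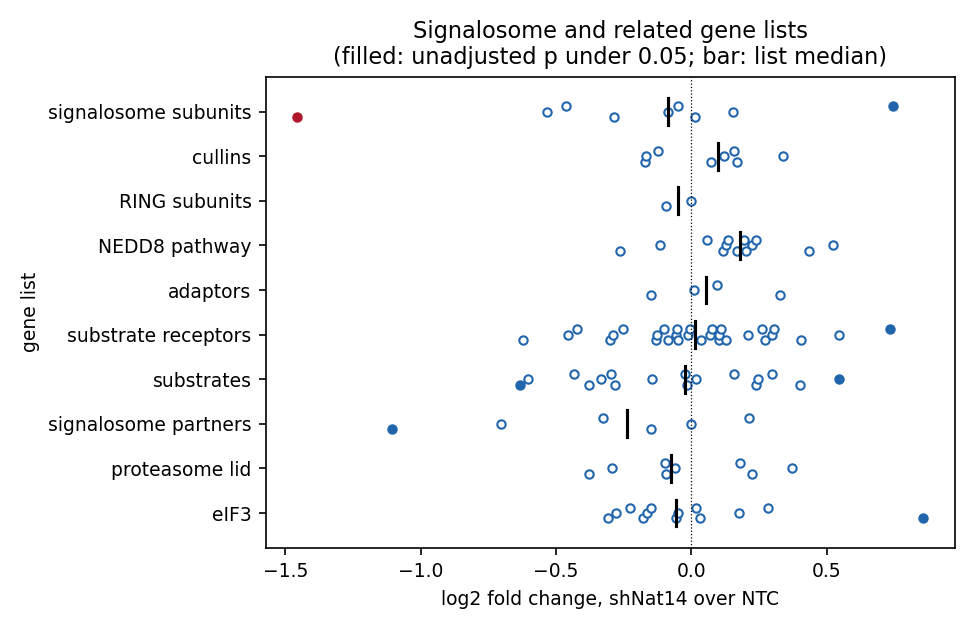
Log2 fold change of shNat14 over NTC for each gene of the signalosome and of 9 related lists; filled points have an unadjusted p under 0.05, black bars are list medians, and Gps1 is red. Gps1 at -1.46 is the lowest point, followed by Csnk2a1 at -1.11, and the medians lie between -0.24 and 0.18.

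Each signalosome subunit has a counterpart in the proteasome lid, which allows Gps1 to be set beside its relative. Psmd6, the counterpart of Gps1, stood at -0.06 per the authors' deposited table (p = 0.823). Psmd11, the counterpart of Cops2, stood at -0.10 (p = 0.722), and Psmd14, the deubiquitinase that matches Cops5, at 0.23 (p = 0.404), per the authors' deposited table. Psmd7, the counterpart of Cops6, stood at -0.09 (p = 0.717), Psmd13, that of subunit 7, at -0.29 (p = 0.231), and Psmd8, that of Cops8, at -0.38 (p = 0.125), per the authors' deposited table. Psmd3 and Psmd12, which match Cops3 and Cops4, stood at 0.37 (p = 0.514) and 0.18 (p = 0.493) per the authors' deposited table. The median over the 8 lid genes was -0.08, and none had an unadjusted p under 0.05.

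Of the cell type markers, none was called, and their values are given beside those of the subunits. Over all rows, 2.25% had an unadjusted p under 0.05 with a lower value in shNat14 and 2.79% with a higher one. Microglial markers were negative for 6 of 6 genes, 4 with an unadjusted p under 0.05, and their summed approximate level was 17.3 CPM in shNat14, against 40.8 CPM in NTC. Their mean levels were low, from 0.48 log2 CPM for Aif1 to 3.27 for P2ry12 per the authors' deposited table. Astrocyte markers were negative for 5 of 5 genes, 3 with an unadjusted p under 0.05, and summed to 1069 CPM in shNat14, against 1693 CPM in NTC. Choroid plexus markers were positive for 4 of 4 genes, none with an unadjusted p under 0.05, and summed to 577 CPM in shNat14, against 169 CPM in NTC. Nearly all of that sum was Ttr, at 568 CPM in shNat14, against 163.5 CPM in NTC (p = 0.065 per the authors' deposited table), and the other 3 genes lay between 0.309 and 6.74 CPM in shNat14, against 0.164 and 3.58 CPM in NTC. Interneuron markers were negative for 4 of 5 genes, 3 with an unadjusted p under 0.05 (113 CPM in shNat14, 169.5 CPM in NTC). Endothelial markers were positive for 4 of 4 genes, none with an unadjusted p under 0.05 (16.0 CPM in shNat14, 10.5 CPM in NTC). Of the erythroid markers, Alas2 was above the lowest level (4.06 CPM in shNat14, 10.4 CPM in NTC), Hba-a1 was at it, and the haemoglobin beta genes of the list are not analysed here. The cortical neuron and progenitor lists held no marker with an unadjusted p under 0.05. Cortical neuron markers were negative for 4 and positive for 4 of 8 genes (4986 CPM in shNat14, 4727 CPM in NTC). Progenitor markers were negative for 4 and positive for 3 of 7 (2275 CPM in shNat14, 2431 CPM in NTC). The part of these markers in the value of Gps1 was not tested.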

How the data were processed

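RNA from sorted cortical cells of 3 shNat14 and 3 NTC libraries was compared by the authors, per the labels. The authors deposited a table of that comparison with log2 fold changes, mean levels in log2 CPM, p-values and adjusted p-values (false discovery rates), per the file headers. DESeq, HTSeq 0.5.4p1, SAMtools 0.1.19, TopHat2 2.0.8 and the build hg19 stand in the submitters' processing notes, with no role for any. As hg19 is a human build and the animals were mice, no coordinates were attached to the expression values. The normalization, the filters and which test gave the p-values are not given in those notes or the labels. Adjusted p-values recomputed by the Benjamini-Hochberg method lay within 1% of the deposited ones in all 21937 rows.

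The subunit genes and the related lists were chosen with earlier results of these data known. The 21 lists held 157 entries, of which 149 matched by symbol, 6 by an older symbol in RefSeq and 2 not at all. Called means an adjusted p under 0.05. The text names all members, the called genes of each list and otherwise up to 3 with the smallest p (all of lists of up to 4), the lid counterparts, 3 genes on each side of Gps1, the 4 genes nearest to it in fold change, and the rows beside it in order of p. Other marker genes, Xist and Gm10031 were chosen after their values were seen.

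An approximate standard error is the size of the fold change divided by the normal deviate of the deposited two-sided p, and the approximate 95% interval follows from it. Approximate group levels weight both groups equally. The calculations were run on simulated data whose p-values were drawn from the same normal form. That run checks the arithmetic only. It cannot show whether the normal form or the equal weights fit the deposited values. Gene lengths and shared stretches of 50 or 100 bases came from GENCODE M21, promoter windows from RefSeq (GRCm38.p6), and motifs were searched on both strands. Python 3.11.15, numpy 2.4.6, pandas 2.3.3, scipy 1.17.1, Biopython 1.88 and matplotlib 3.10.9 were used. Alternatives were other adjustments, thresholds, centring, summaries of the other subunits, a t distribution and another gene length.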

Additional observations from a re-analysis of the deposited data

How the results depend on the processing

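Of 70 alternative values, 65 stayed within the limits set for a change, 5 moved and 0 reversed. This tally says little about how firm the results are. Many of the values adjust again the p-values of genes far from the threshold, or shift fold changes by 0.03, and could hardly move. A reversal was counted for called genes only. The call of Gps1 kept its side of the threshold under the 4 other adjustments tried, with adjusted p up to 0.00161 by Bonferroni correction, and the difference between Gps1 and the other subunits ran from -1.44 to -1.37 on the log2 scale. At an unadjusted p under 0.05 the count of subunits was 2 in place of 1, with Cops2 added. With a t distribution of 4 degrees of freedom behind the deposited p, the approximate standard error of Gps1 was 0.0153 in place of 0.27. That of Cops2 was 0.16 in place of 0.29. The gap follows from the calculation, since the t deviate exceeds the normal one by more as p gets smaller. The interval of Gps1 thus rests on the normal form. Its place among the 9 by level per kilobase also moved with the gene length used. Centring on the median of genes at or above the median level, 0.03, put Cops5 at -0.02 in place of 0.01, and neither value was called. No paired analysis was possible because single libraries have no values in the deposited comparison, and leaving out each library was not run for the same reason. The depth of the libraries is unknown.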

Other observations

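Translation initiation factor 3, another complex built on PCI and MPN subunits, had 13 genes per the authors' deposited table, with a median log2 fold change of -0.06, 8 negative and 5 positive. None was called, and 1 had an unadjusted p under 0.05, a mark reached by 5.04% of all rows. That gene was the subunit j gene Eif3j1, listed under an older symbol, at 0.86 (p = 0.004, adjusted p = 0.425) per the authors' deposited table. The longest Eif3j1 transcript shared 54.8% of its 50-base stretches with other genes, 39.4% with its near copy Eif3j2, so its value is uncertain in the same way as that of Gps1. The next smallest p-values were those of Eif3l, a PCI-domain subunit gene, at -0.31 (p = 0.211), and Eif3a, the gene of the largest subunit, at 0.28 (p = 0.266), per the authors' deposited table.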
